A study of Mus musculus with 20 samples.

Results

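The NR4A orphan nuclear receptors were followed in mouse gastrocnemius, a calf muscle, across 4 groups that differ in a muscle Bmal1 knockout label and in a bout of treadmill running. The members were the rows Nr4a1 (also called Nur77), Nr4a2 (Nurr1) and Nr4a3 (NOR-1) of the deposited counts, 3 genes of 53311 rows. All 3 passed the filter on low counts, among 13560 genes tested. NR4A proteins are transcription factors of the nuclear receptor family that act without a known activating hormone, so their activity follows largely from how much of them is made. They are immediate early genes, which means that they are transcribed within minutes of a stimulus such as cAMP or calcium signalling, without new protein synthesis. They bind a DNA element called NBRE as monomers, Nr4a1 and Nr4a2 can also pair with the RXR receptors, and in muscle they are known for control of glucose and lipid use and for their response to adrenergic signals and exercise.

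RNA was sequenced from 20 samples, 5 per group. Every sample carried Cre and the floxed allele (genotype label Cre+:iMSBmal1 fl/fl), including the controls. The groups were vehicle with no exercise (vehicle at rest), vehicle with exercise, iMSBmal1KO with no exercise (knockout at rest) and iMSBmal1KO with exercise. Exercise was a single treadmill session of 30 min with muscle taken 1 h later. The time label was zeitgeber time 13 h, counted from lights on, in all groups, and for exercised muscle it does not say whether this marks the running or the dissection. The labels used here name neither the promoter that drives Cre, nor the inducing agent, nor the age or sex of the animals, and they do not say that samples of a group came from separate animals. The p-values therefore measure the spread between these samples.

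Total counts ran from 8045154 to 11269812 per sample. Muscle fibre markers (Ckm, Acta1, Tnnt3 and Mylpf) summed to at least 53569 CPM (counts scaled to a common library size, adjusted by TMM) in every library. Arntl, the gene that encodes BMAL1, was not lower in the knockout-labelled samples, with means of 12.3 ± 2.39 CPM (vehicle) and 14.5 ± 1.94 CPM (knockout-labelled) at rest (SD, n = 5 each). Its exon-level deletion was not measured here, and an antisense gene overlaps its exons. Dbp, a direct clock target, stood at 75.0 and 11.8 CPM in the same groups. The samples are therefore called knockout-labelled, and every genotype direction rests on that label.

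The proximal promoters of the 3 genes are shown first, with a motif that is known from work on these genes, the cAMP response element (CRE) bound by the factor CREB. No binding was measured here. Each window is 250 bases before to 50 bases after the RefSeq start site in build GRCm38.p6, printed 5′ to 3′ on the gene's strand. The windows lie at chr15:101266596-101266895 on the plus strand (Nr4a1), chr2:57123954-57124253 on the minus strand (Nr4a2) and chr4:48045055-48045354 on the plus strand (Nr4a3). Capitals mark the CRE core, TGACG, or its reverse complement CGTCA.
Nr4a1: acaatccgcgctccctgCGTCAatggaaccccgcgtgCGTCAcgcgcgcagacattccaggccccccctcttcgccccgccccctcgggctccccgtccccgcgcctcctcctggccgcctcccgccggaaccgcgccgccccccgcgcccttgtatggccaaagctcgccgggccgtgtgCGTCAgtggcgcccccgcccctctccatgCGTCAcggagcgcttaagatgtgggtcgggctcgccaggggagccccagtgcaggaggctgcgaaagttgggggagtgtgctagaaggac
Nr4a2: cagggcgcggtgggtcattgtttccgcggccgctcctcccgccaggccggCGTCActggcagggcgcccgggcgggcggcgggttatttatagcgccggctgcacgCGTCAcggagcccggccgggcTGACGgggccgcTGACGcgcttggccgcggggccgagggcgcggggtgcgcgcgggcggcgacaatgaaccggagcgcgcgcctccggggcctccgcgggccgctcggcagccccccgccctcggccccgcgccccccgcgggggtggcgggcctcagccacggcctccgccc
Nr4a3: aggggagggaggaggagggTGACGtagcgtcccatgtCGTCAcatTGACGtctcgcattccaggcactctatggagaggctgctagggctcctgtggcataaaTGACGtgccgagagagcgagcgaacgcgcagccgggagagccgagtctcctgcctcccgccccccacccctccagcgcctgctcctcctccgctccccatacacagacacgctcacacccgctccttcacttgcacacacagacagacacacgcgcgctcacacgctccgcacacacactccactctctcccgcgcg
Each window held 4 CRE cores. Of 32851 promoter windows of the same length in the RefSeq table, 20.8% held at least 1 core on either strand and 0.231% held 4 or more. The core contains a CG step and the 3 windows were rich in G and C, with 72.3%, 81.7% and 64.7% in the order printed against a median of 52.7% over all windows. Counted from the start site, the cores of Nr4a1 began at -233, -213, -69 and -40, which puts 2 of them closer to it than any core of the other members. Those of Nr4a2 began at -200, -144, -123 and -111, and those of Nr4a3 at -231, -213, -205 and -147. The full palindrome TGACGTCA, which holds a core on each strand, was in none of the 3 windows and in 1.79% of all windows. The E-box CACGTG, the element bound by CLOCK and BMAL1, was in none of the 3 and in 7.15% of all. The NBRE letters AAAGGTCA were likewise in none of the 3 and in 1.51% of all. The CArG box of serum response factor was in none of the 3 and in 1.63% of all, and a MEF2 site was in Nr4a2 only and in 3.19% of all. Of the 18 other immediate early genes with a window, drawn from a list of 23, 12 held at least 1 core, 5 held 2 or more and 0 held 4 or more. For a gene with several windows the one with the most cores was counted, whereas the shares above are per window.

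**Figure D1:**
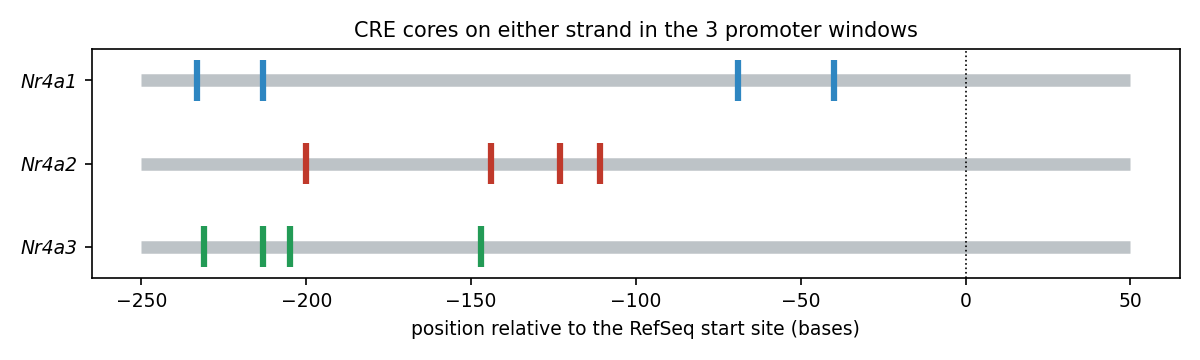
Positions of the CRE cores (coloured ticks, either strand) in the 3 promoter windows (grey bars), in bases from the RefSeq start site at 0. Each gene has 4 ticks, all before the start site, and only Nr4a1 has ticks within 100 bases of it.

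Nr4a1 was the most abundant member and was present in every library. In vehicle at rest its replicates 1 to 5 stood at 163, 112, 283, 96.8 and 109.6 CPM. In vehicle after exercise they stood at 374, 451, 374, 485 and 290.1 CPM. Every exercised vehicle library was above every resting one, and resting replicate 3 came within a few percent of the lowest exercised library. In knockout at rest the values were 178, 93.3, 116, 159 and 127 CPM, and in knockout after exercise 215, 218, 203, 196 and 198 CPM. These groups did not overlap either, and the 5 exercised knockout-labelled libraries lay within 1.11-fold of each other. Group means were 153 ± 77.0, 395 ± 75.9, 135 ± 33.9 and 206 ± 10.06 CPM in the order given (SD, n = 5 each). Ordered by mean, vehicle after exercise was highest, then knockout after exercise, vehicle at rest and knockout at rest. The range of knockout after exercise lay inside that of vehicle at rest, and both resting groups overlapped. That range reached so high only through resting vehicle replicate 3. The other resting vehicle libraries, at 163 CPM or less, were below every exercised knockout-labelled library.

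Nr4a2 was close to the floor at rest. Its counts in vehicle at rest were 3, 2, 8, 0 and 12 reads, which is 0.348, 0.179, 0.981, 0 and 1.33 CPM. After exercise the vehicle libraries held 258, 100, 231, 176 and 83 reads, or 26.5, 11.4, 25.2, 19.0 and 7.78 CPM. No resting library came near the lowest exercised one. Knockout at rest held 10, 9, 3, 6 and 4 reads, or 1.24, 1.03, 0.332, 0.647 and 0.426 CPM. Knockout after exercise held 63, 20, 43, 14 and 51 reads, or 7.29, 2.16, 4.705, 1.89 and 4.37 CPM. All of these were above both resting groups and below all exercised vehicle libraries. Means were 0.568 ± 0.565 CPM (vehicle at rest), 17.96 ± 8.25 CPM (vehicle after exercise), 0.737 ± 0.392 CPM (knockout at rest) and 4.08 ± 2.19 CPM (knockout after exercise). Of the 10 resting libraries 4 held 3 reads or fewer, so the order of both resting groups could not be read at this depth.

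Nr4a3 varied most among resting libraries. In vehicle at rest it stood at 18.0, 6.27, 74.2, 1.23 and 4.22 CPM in replicates 1 to 5, a range of 60.3-fold. In vehicle after exercise it stood at 199, 70.8, 221, 89.0 and 66.3 CPM. Resting replicate 3 was thus above the lowest exercised libraries, replicates 2 and 5, and the other 4 resting libraries were below all exercised ones. In knockout at rest the values were 42.0, 9.998, 3.43, 9.49 and 13.2 CPM, with replicate 1 far above the rest. In knockout after exercise they were 51.03, 20.3, 68.8, 60.9 and 64.4 CPM. Replicate 2 of this group was below the highest resting library, and replicate 3 was above the lowest exercised vehicle library. Means were 20.8 ± 30.5, 129 ± 74.5, 15.6 ± 15.2 and 53.1 ± 19.5 CPM in the same order of groups. The order by mean matched that of Nr4a1, and knockout after exercise again lay within the range of vehicle at rest. This too rested on resting vehicle replicate 3, since the other resting vehicle libraries, at 18.0 CPM or less, were below every exercised knockout-labelled library.

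**Figure D2:**
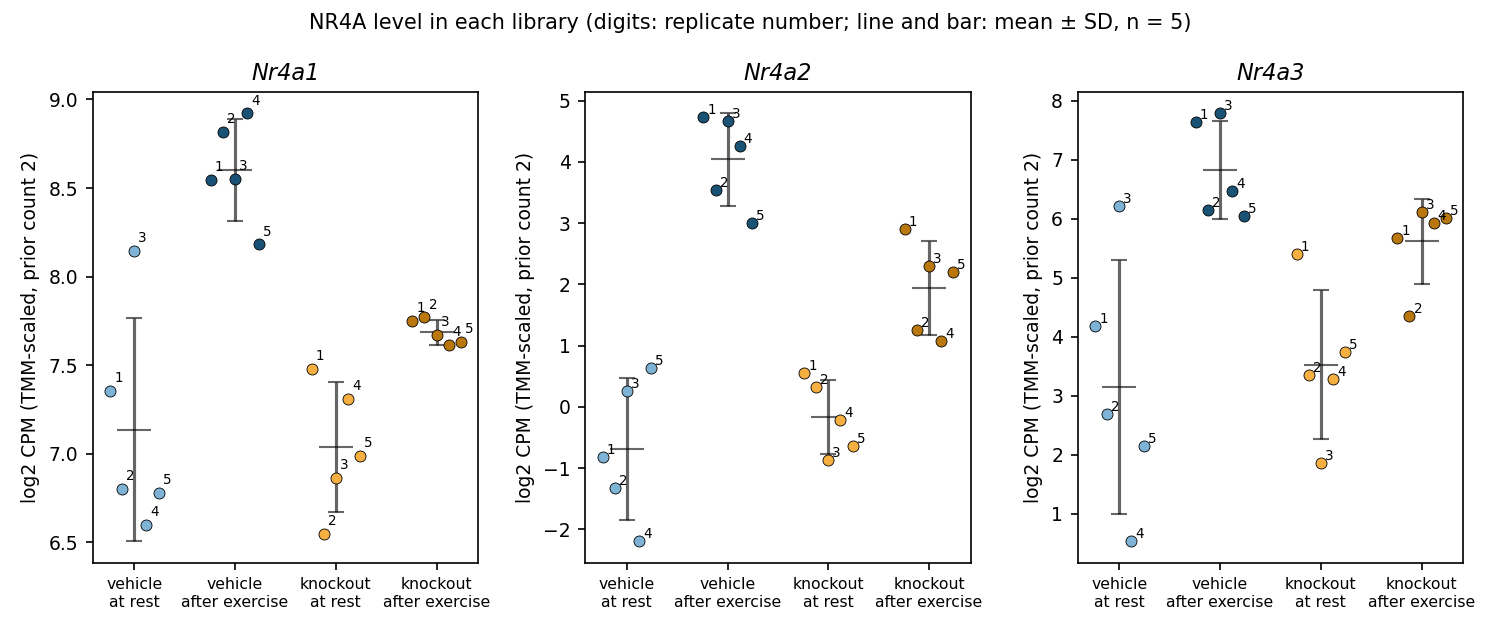
Level of each member in the 20 libraries as log2 CPM (TMM-scaled, prior count of 2) on the vertical axis, with the 4 groups on the horizontal axis; points are libraries labelled by replicate number, and the line with its bar is mean ± SD. Exercised vehicle libraries are the highest for Nr4a2 without overlap, and resting vehicle replicate 3 stands among exercised libraries for Nr4a3.

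Levels of the 3 genes were set beside each other only per length, as CPM per kilobase of the exons annotated in GENCODE M21 (3509, 4059 and 5987 bases for Nr4a1, Nr4a2 and Nr4a3). That annotation need not be the one the counts rest on. On this scale the level in vehicle at rest was 43.5 ± 21.95 for Nr4a1, 3.47 ± 5.10 for Nr4a3 and 0.140 ± 0.139 for Nr4a2. After exercise in vehicle it was 112 ± 21.6, 21.6 ± 12.4 and 4.42 ± 2.03 in the same order. Nr4a1 took 94.6% of the summed per-length level of the 3 genes in vehicle at rest, 81.6% after exercise, 93.8% in knockout at rest and 85.7% in knockout after exercise. Nr4a3 took 5.09%, 15.3%, 5.75% and 12.9%, and Nr4a2 took at most 4.46% in any library.

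Exercise in vehicle muscle raised Nr4a1 and Nr4a2. Nr4a2 rose a fitted 31.4-fold (log2 fold change 4.97, SE 0.55, 95% interval 3.83 to 6.12, edgeR adjusted p 9.15e-05), and the counts of 0 to 12 reads at rest make its size imprecise. Nr4a2 passed the filter, which asked for 5 libraries at 1.11 CPM or more, through exercised libraries: 1 of 5 resting libraries under each label reached that level and all exercised ones did. Nr4a1 rose 2.58-fold (log2 fold change 1.37, SE 0.25, adjusted p 0.00921). For Nr4a3 the test made no call, with a fitted 6.27-fold difference (log2 fold change 2.65, SE 0.84, 95% interval 0.88 to 4.42, adjusted p 0.235). Thus 2 of the 3 members were called higher, where 0.605% of all genes tested were, and 2 of 3 did not overlap between groups and were higher, where 1.18% of all genes were. Since the filter admitted Nr4a2 through its exercised libraries, its share in these counts is a description. Exact two-sided permutation tests of log2 CPM gave p = 0.00794 for Nr4a1 and for Nr4a2, the smallest value possible, and p = 0.0238 for Nr4a3. They are unadjusted and part of 12 such tests.

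The call of Nr4a3 depended on a resting library and on the test. Without vehicle at rest replicate 3 its log2 fold change was 4.12 (adjusted p 0.0231), and the resting mean fell from 20.8 to 7.43 ± 7.33 CPM (n = 4). The call of Nr4a1 was kept without that library (log2 fold change 1.71, adjusted p 6.78e-05). Limma-voom also called Nr4a3 (log2 fold change 3.75, adjusted p 0.0161). When only both vehicle groups were fitted, Nr4a1 was not called (log2 fold change 1.37, adjusted p 0.106), while Nr4a2 was (adjusted p 0.00957). Nr4a2 was called under all 23 alternatives, with adjusted p-values up to 0.00957.

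In that resting library some other immediate early genes were high as well. Of 21 tested genes of the list, 13 had their highest resting vehicle value in replicate 3, against 3, 4, 1 and 0 in replicates 1, 2, 4 and 5. The log2 CPM of replicate 3 minus the median of the other 4 had a median of 0.46 over the 21 genes and ran from -0.82 to 1.95. The genes with the 3 highest differences, the ones over 1, are given here, chosen after their values were seen. Atf3, a stress-induced transcription factor, stood there at 17.3 CPM and at 2.22 to 7.42 CPM in the other 4. Ppargc1a, which encodes the PGC-1α coactivator, stood at 75.2 CPM and at 23.5 to 58.4 CPM in the others. Fos stood at 5.15 CPM against 0.555 to 3.71 CPM. The same library held 0.981 CPM of Nr4a2, below the 1.33 CPM of replicate 5. Resting knockout replicate 1, the library highest in Nr4a3 under that label, was the highest of its group in 4 of the 21 genes.

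In knockout-labelled muscle the 3 members had higher fitted values after exercise, and 0 of 3 were called, as was the case for 0% of all genes. Nr4a2 had a fitted 5.59-fold difference (log2 fold change 2.48, SE 0.57, 95% interval 1.29 to 3.67, edgeR adjusted p 0.813), from 3 to 10 reads at rest and with the same entry through exercised libraries. Nr4a1 had a log2 fold change of 0.61 (SE 0.24, 95% interval 0.10 to 1.12, adjusted p 0.9995) and Nr4a3 one of 1.77 (SE 0.83, 95% interval 0.02 to 3.53, adjusted p 0.9995). Resting and exercised libraries did not overlap for Nr4a1 and Nr4a2, higher after exercise, which 0.487% of all genes showed. The exact permutation p was 0.00794 for both, the smallest possible, and 0.0159 for Nr4a3. The unadjusted edgeR p was 0.0208 for Nr4a1, 3.47e-04 for Nr4a2 and 0.0482 for Nr4a3, each under 0.05. Across all genes 639 had an unadjusted p under 0.05 in this contrast, or 4.71%. Given its entry through exercised libraries, the place of Nr4a2 beside that share is a description. DESeq2 also called 0 genes. With a slow-fibre score as covariate 6 genes were called, none of them a member (Nr4a2 adjusted p 0.0770).

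At rest the knockout label made no called difference in any of the 3 genes, where 3.86% of all genes were called. The log2 fold changes of knockout-labelled over vehicle were -0.18 for Nr4a1 (95% interval -0.69 to 0.33, edgeR adjusted p 0.811), 0.37 for Nr4a2 (-1.24 to 1.98, adjusted p 0.889) and -0.41 for Nr4a3 (-2.18 to 1.36, adjusted p 0.888). The intervals of Nr4a2 and Nr4a3 leave room for differences of more than 2-fold either way. Without vehicle at rest replicate 3 the sign of Nr4a1 turned to 0.16 and that of Nr4a3 to 1.06, still not called.

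After exercise the knockout-labelled muscle held less Nr4a1 and Nr4a2 than vehicle muscle. Nr4a2 stood at 0.230 of the vehicle level (log2 fold change -2.12, SE 0.42, 95% interval -2.997 to -1.25, edgeR adjusted p 0.00344). Nr4a1 stood at 0.522 of it (log2 fold change -0.94, SE 0.24, adjusted p 0.0254). For Nr4a3 the test made no call (log2 fold change -1.28, SE 0.79, 95% interval -2.95 to 0.38, adjusted p 0.403). That is 2 of 3 members called lower, where 3.75% of all genes were, and the same 2 did not overlap between groups and were lower, where 3.59% of all genes were. Of the 870 genes called, 362 were higher, against 449 of 845 when libraries were scaled by size only. The exact permutation p was 0.00794 for Nr4a1 and Nr4a2, the smallest possible, and 0.0159 for Nr4a3. Nr4a2 was called under all 23 alternatives. The call of Nr4a1 was lost without vehicle after exercise replicate 2 (log2 fold change -0.89, adjusted p 0.0616), without vehicle after exercise replicate 4 (-0.85, 0.0648), without knockout after exercise replicate 4 (-0.92, 0.0635) and with no filter on low counts (-0.95, 0.0574). This comparison and the exercise response in vehicle share the exercised vehicle libraries, so a high value there moves both.

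The interaction asks whether the exercise response differed between the labels, and it has the same 20 libraries. All 3 members had a smaller fitted response in knockout-labelled muscle, and 0 of 3 were called, with 0% of all genes called. The difference of log2 fold changes was -2.49 for Nr4a2 (SE 0.89, 95% interval -4.35 to -0.63, unadjusted p 0.0113, edgeR adjusted p 0.779). It was -0.76 for Nr4a1 (SE 0.34, 95% interval -1.47 to -0.04, unadjusted p 0.0396, edgeR adjusted p 0.849). It was -0.87 for Nr4a3 (SE 1.14, 95% interval -3.29 to 1.55, edgeR adjusted p 0.978). An unadjusted p under 0.05 was thus found for 2 of 3 members and for 5.83% of all genes. Nr4a2 had passed the filter through exercised libraries, so its share in this count is a description. Its value here also rests on 0 to 12 reads in vehicle at rest and 3 to 10 in knockout at rest. Over the 32 alternatives run for each, the test called none of the 3 and the sign stayed negative. Without vehicle at rest replicate 3 the value of Nr4a3 was -2.34, and without knockout at rest replicate 1 it was -0.10. A lower level after exercise was thus called for Nr4a1 and Nr4a2, and a difference in their exercise response was not.

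**Figure D3:**
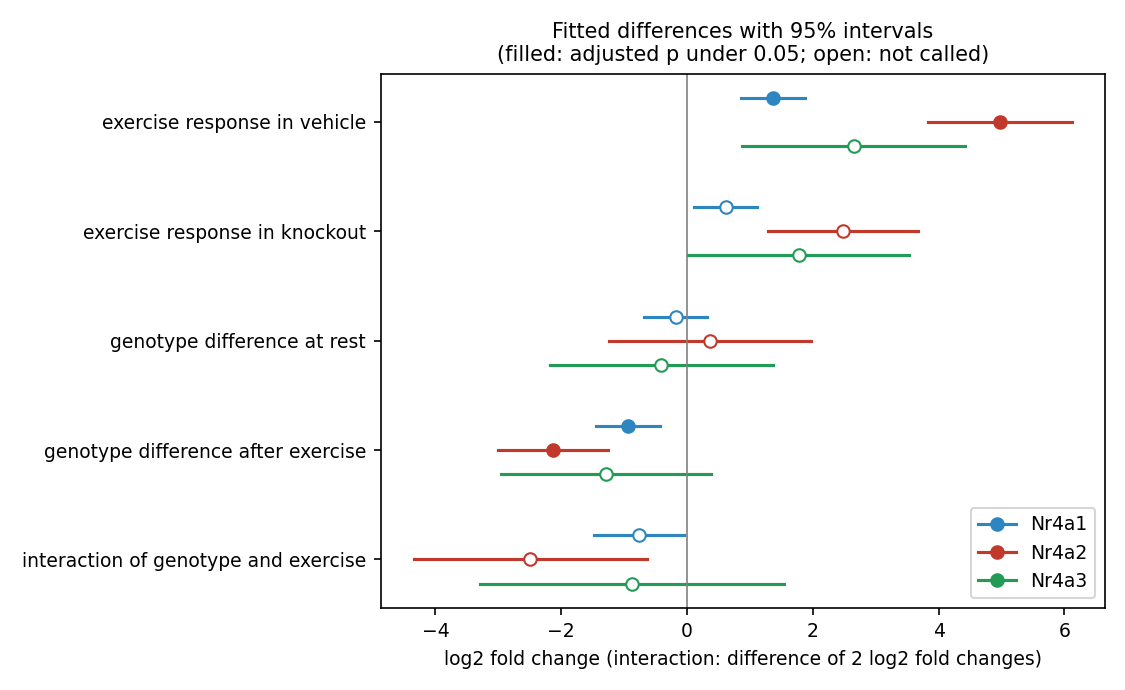
Fitted log2 fold changes (points) with 95% intervals (lines) of the 3 members in the 5 contrasts; filled points had an edgeR adjusted p under 0.05 and open points did not. Nr4a1 and Nr4a2 are called higher with exercise in vehicle and lower in knockout-labelled muscle after exercise, and no member is called elsewhere.

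Changes of the members relative to one another were compared within libraries as differences of log2 CPM, which with a prior count of 2 understate changes of Nr4a2. The ratio of Nr4a2 to Nr4a1 was higher after exercise than at rest in vehicle, with mean log2 ratios of -4.56 ± 0.70 and -7.83 ± 1.00 (SD, n = 5). The difference was 3.26 (exact permutation p = 0.00794, adjusted over 12 ratio tests 0.0952). In knockout-labelled muscle the difference was 1.47 (exact permutation p = 0.0238, adjusted 0.114). The ratio of Nr4a3 to Nr4a1 differed by 2.20 in vehicle (exact permutation p = 0.0397, adjusted 0.114) and by 1.44 in knockout-labelled muscle (p = 0.0476, adjusted 0.114). None of the 12 ratio tests passed the adjustment, and the smallest adjusted value that a single test at the smallest p can give is 0.0952.

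Over the 20 libraries the members followed each other, with Pearson r of 0.87 for Nr4a1 and Nr4a3, 0.86 for Nr4a1 and Nr4a2, and 0.86 for Nr4a2 and Nr4a3. These values describe points that share groups, depth and tissue composition. With each group's mean removed, r was 0.72 for Nr4a1 and Nr4a3, 0.61 for Nr4a2 and Nr4a3, and 0.39 for Nr4a1 and Nr4a2. The library highest in Nr4a1 was also the highest in Nr4a2 in 1 of 4 groups, knockout at rest. Among exercised vehicle libraries, for example, replicates 1 and 3 were highest for Nr4a2 and Nr4a3, while replicates 2 and 4 were highest for Nr4a1.

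**Figure D4:**
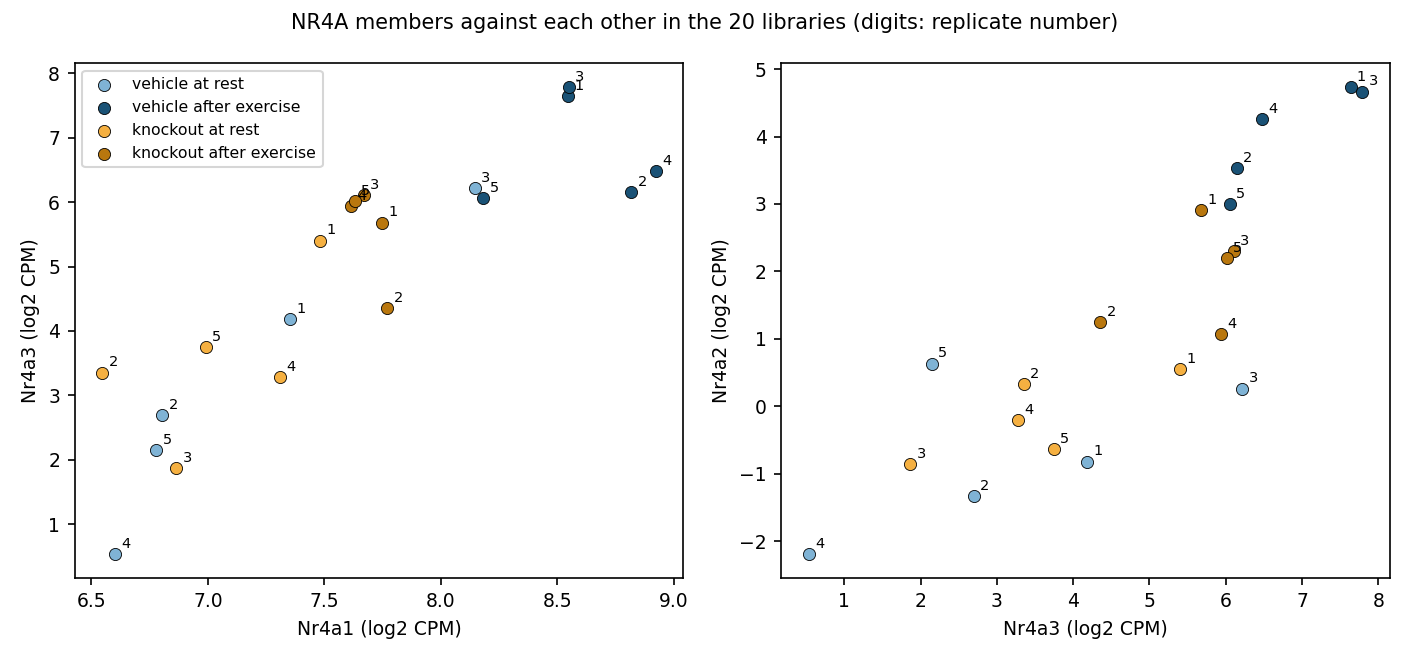
Log2 CPM of Nr4a3 against Nr4a1 (left) and of Nr4a2 against Nr4a3 (right), with 1 point per library, coloured by group and labelled by replicate number. Resting vehicle replicate 3 lies with exercised libraries on the left and among the low Nr4a2 values on the right.

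Bulk RNA does not tell fewer cells of a type from less RNA per cell, and other cells of muscle also express NR4A genes, such as monocytes and the endothelium. The 6 monocyte and macrophage markers summed to 23.0 to 52.4 CPM over all libraries, with medians of 34.2, 33.6, 31.3 and 39.9 CPM in the order of groups above. The 4 endothelial markers had medians of 121, 113, 127 and 124 CPM. Of the 3 neutrophil markers Cxcr2 was at 0 in 3 groups, and their sum never exceeded 0.358 CPM. The 3 fat cell markers (Adipoq, Plin1 and Cfd), all detected in each group, ran from 10.2 to 48.2 CPM in vehicle at rest and from 4.92 to 75.0 CPM after exercise. Under the knockout label they ran from 0.690 to 67.9 CPM at rest and from 1.85 to 32.5 CPM after exercise. In 4 of 4 groups the library highest in Nr4a1 was also the one highest in fat cell markers, a match chosen after the values were seen. The same match held in 1 of 4 groups for Nr4a2 and in 2 of 4 for Nr4a3. The libraries highest in Nr4a3 had fat sums of 48.2 CPM (resting vehicle replicate 3) and 67.9 CPM (resting knockout replicate 1), the highest of their groups. After exercise they had 7.52 CPM (vehicle replicate 3) and 19.7 CPM (knockout replicate 3), below the maxima of 75.0 and 32.5 CPM. With group means removed, Pearson r with the fat-cell score over 20 libraries was 0.56 for Nr4a1, -0.14 for Nr4a2 and 0.21 for Nr4a3. With a fat-cell score as covariate, added after seeing the data, Nr4a1 kept its call for exercise in vehicle (log2 fold change 1.503, edgeR adjusted p 9.93e-04) and after exercise between labels (-0.92, adjusted p 0.00855). Slow fibre markers ran from 35.5 to 3539 CPM over the libraries, and with their score as covariate the same calls stood at 1.34 (adjusted p 0.0173) and -0.94 (adjusted p 0.0296). With group means removed, Pearson r with the slow-fibre score was -0.09 for Nr4a1, 0.25 for Nr4a2 and 0.41 for Nr4a3. The library highest in slow fibre markers was the highest in Nr4a3 in 1 of 4 groups, and in Nr4a1 or Nr4a2 in 0 of 4. Exercised vehicle replicates 1 and 3 held 1980 and 2344 CPM of these markers. Replicates 2, 4 and 5 held 35.5, 93.1 and 598 CPM.

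The genes whose log2 CPM was most like that of a member over the 20 libraries were ranked by Pearson r among 11723 genes with a mean log2 CPM of at least 1. For Nr4a1 they were Pde4d (r = 0.88), Nr4a3 (0.87), Nfe2l2 (0.87), Irs2 (0.87) and Midn (0.86). For Nr4a2 they were Impact (0.94), Sik1 (0.92), Pde4d (0.89), Nfe2l2 (0.89) and Irs2 (0.89). For Nr4a3 they were Irs2 (0.92), Impact (0.88), Nr4a1 (0.87), Nr4a2 (0.86) and Atoh8 (0.85). Pde4d encodes an enzyme that degrades cAMP, and its vehicle mean was 121 ± 20.5 CPM before and 218 ± 22.1 CPM after exercise, against 128 ± 16.4 and 174 ± 9.32 CPM in knockout-labelled muscle. Irs2, an adaptor of the insulin receptor, was at 48.0 ± 36.5, 162 ± 50.4, 34.2 ± 13.1 and 88.9 ± 45.3 CPM in the same order. These genes were chosen for likeness to the members over the same libraries, exercised ones included. Their exercise responses are not independent of that choice and are given as a description. Exercise in vehicle raised Pde4d (log2 fold change 0.85, edgeR adjusted p 1.91e-04) and the stress factor Nfe2l2 (0.91, adjusted p 0.00179), while Irs2 was not called (1.75, adjusted p 0.119). Irs2 was called under 6 of 23 alternatives, including DESeq2 (DESeq2 adjusted p 0.0134) and the fit without vehicle at rest replicate 3 (edgeR adjusted p 0.0180). An antisense transcript, 9530052E02Rik, overlaps exons of Irs2. With group means removed, 1 of the 5 genes stayed among the top 5 for each member. The others ranked lower by that measure, down to 242 for Nr4a1, 1503 for Nr4a2 and 120 for Nr4a3.

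The pathway around NR4A was described from lists, which were chosen with earlier results of these data known. The shares of list genes called are therefore a description. Of 21 tested co-induced immediate early genes, 7 were called higher with exercise in vehicle, where 0.605% of all genes were, and 0 lower, with a median log2 fold change of 0.99 against 0.00 over all genes. The 4 with the smallest p were Nfil3, Sik1, Fosb and Junb. Sik1, a kinase that is itself a CREB target and restrains CREB coactivators, went from 11.4 ± 3.51 CPM to 78.1 ± 20.9 CPM (log2 fold change 2.77, edgeR adjusted p 1.05e-04). Nfil3, a transcription repressor with ties to the clock, had a log2 fold change of 1.72 (adjusted p 3.58e-05). Fosb and Junb, subunits of AP-1, had values of 2.78 and 2.72 (adjusted p 0.00588 and 0.0150). Fosb was close to the floor at rest in vehicle (0.366 ± 0.119 CPM) and stood at 2.54 ± 1.42 CPM after exercise, so its size is imprecise. It reached the filter level of 1.11 CPM only in exercised vehicle libraries, where it was high. Its share in the count above is therefore a description. Junb overlaps exons of Prdx2, and its call was lost when resting vehicle replicate 2, 4 or 5 was left out (adjusted p at most 0.0606), with limma-voom (0.0649) and when only both vehicle groups were fitted (0.229). In knockout-labelled muscle 0 of 21 were called with exercise and the median was 0.38. The smallest p belonged to Egr1, a zinc finger factor (log2 fold change 1.39, adjusted p 0.813), which in vehicle had a value of 0.65.

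Between labels after exercise, 4 of the 21 were called lower, where 3.75% of all genes were, and 0 higher, with a median of -0.46 against 0.01 over all genes. They were Fosb (log2 fold change -2.39, edgeR adjusted p 0.00228), Sik1 (-1.46, adjusted p 0.00339), Ier5 (-1.30, adjusted p 0.00817) and Junb (-2.20, adjusted p 0.0105). Fosb was close to the floor in knockout after exercise (0.459 ± 0.276 CPM) and had passed the filter through exercised vehicle libraries. Its share in this count is likewise a description. Ier5 and Junb were not called when only both exercised groups were fitted (adjusted p 0.0634 and 0.107). At rest 1 of 21 was called, a share near the 3.86% of all genes called. It was Nfil3, which was higher (1.37, adjusted p 3.01e-05). In the interaction 0 of 21 were called.

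**Figure D5:**
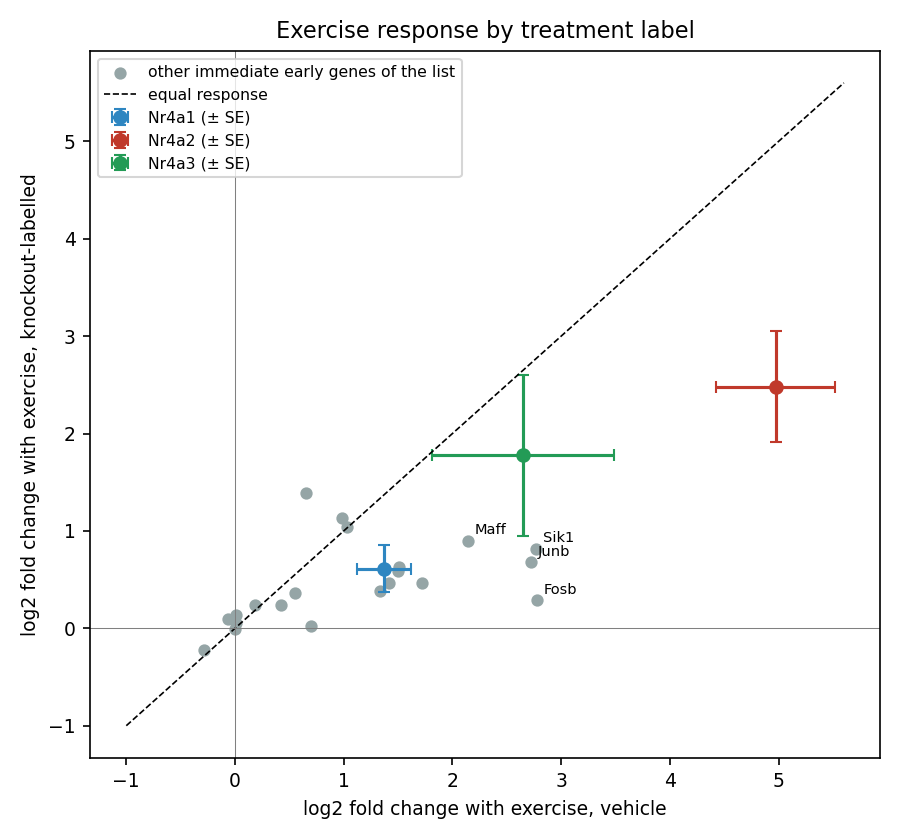
Log2 fold change with exercise in vehicle (horizontal) and in knockout-labelled muscle (vertical) for the 3 members (coloured, ± SE) and the 21 tested immediate early genes (grey); the dashed line marks an equal response. Both axes rest on separate libraries, Nr4a2 is farthest right at 4.97 and 2.48, and all 3 members lie under the line, a difference that the interaction test did not call.

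Upstream of the NR4A genes, 26 of 27 listed genes of cAMP, calcium and CREB signalling were tested. With exercise in vehicle 1 of 26 was called higher, where 0.605% of all genes were. It was Crem, a CREB-family factor with an early-induced repressor form, which went from 6.02 ± 1.09 to 12.9 ± 5.00 CPM (log2 fold change 1.10, edgeR adjusted p 0.00935). Gm6225 overlaps exons of Crem, and the call was lost when only both vehicle groups were fitted (adjusted p 0.0806). In knockout-labelled muscle 0 of 26 were called with exercise. At rest 1 of 26 was called higher and 1 lower in knockout-labelled muscle, where 3.86% of all genes were called in either direction. Prkar1a, a regulatory subunit of protein kinase A, was higher (0.38, adjusted p 0.0171) and the acetyltransferase Ep300 was lower (-0.38, adjusted p 0.0325). The call of Prkar1a was lost when resting vehicle replicate 3 or 4 or resting knockout replicate 5 was left out (adjusted p at most 0.0552). That of Ep300 was lost in 7 of 10 fits with 1 library fewer (adjusted p at most 0.101) and kept when resting vehicle replicate 4 or resting knockout replicate 2 or 3 was left out. Over all 23 alternatives the call of Ep300 was lost in 9. After exercise 2 of 26 were called higher and 1 lower between labels, where 6.42% of all genes were called in either direction. The kinase subunit Prkacb was higher in knockout-labelled muscle, at 75.3 ± 8.78 against 48.3 ± 7.39 CPM in vehicle (log2 fold change 0.64, adjusted p 0.00935). Camk2d, a calcium-dependent kinase (0.61, adjusted p 0.0319), and the factor Srf (-0.40, adjusted p 0.0380) were also called. The call of Camk2d was lost when exercised vehicle replicate 1, 2 or 3 or exercised knockout replicate 2 or 4 was left out (adjusted p at most 0.0877). That of Srf was kept in such fits only when exercised vehicle replicate 3 or exercised knockout replicate 5 was left out (adjusted p at most 0.118 otherwise). Over all 23 alternatives the call of Camk2d was lost in 7 (adjusted p at most 0.130) and that of Srf in 10. The 3 RXR partners had 0 calls in all 5 contrasts. The smallest p at rest and after exercise was that of Rxra (log2 fold change -0.33 in both, adjusted p 0.220 and 0.163).

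Metabolic genes that earlier work has tied to NR4A in muscle were listed as well. Of 11 glucose and glycogen genes, 0 were called with exercise under either label. Between labels 3 were called lower and 0 higher at rest, where 2.06% of all genes were called lower, and again 3 lower and 0 higher after exercise, where 3.75% of all genes were called lower, with medians of -0.25 and -0.28. They were Pfkm (phosphofructokinase), Fbp2 (fructose bisphosphatase) and Hk2 (hexokinase) in both states. At rest the mean of Fbp2 was 35.3 ± 4.93 CPM under the vehicle label and 18.1 ± 4.37 CPM under the knockout label (log2 fold change -0.96, edgeR adjusted p 0.00769). A link between these differences and NR4A levels was not tested. Hk2 had log2 fold changes of -0.78 at rest (adjusted p 0.0129) and -0.84 after exercise (adjusted p 0.00527). These calls were lost with no filter on low counts (adjusted p 0.0525) and with only both exercised groups fitted (0.0630), respectively. Pfkm, whose exons overlap Senp1 and Gm26513, had values of -0.67 and -0.69 (adjusted p 0.00135 and 8.28e-04).

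Of 14 lipid and oxidative genes, 1 was called with exercise in vehicle, Lpin1, a phosphatidate phosphatase and coactivator (log2 fold change 0.58, edgeR adjusted p 0.00179). Its mean in vehicle was 284 ± 14.8 CPM before and 425 ± 56.6 CPM after exercise, and the knockout-labelled means were 407 ± 30.9 and 428 ± 15.9985 CPM. At rest 2 of 14 were called higher and 1 lower between labels, where 3.86% of all genes were called in either direction. They were Lpin1 (0.52, adjusted p 8.09e-04), Pdk4, an inhibitory kinase of pyruvate dehydrogenase (0.88, adjusted p 0.0478), and its counterpart phosphatase Pdp1 (-0.46, adjusted p 0.0272). Among fits with 1 library left out, the call of Pdk4 was kept only without resting knockout replicate 1 or 4. It was lost in the other 8 of 10 such fits (adjusted p at most 0.174), and in 13 of all 23 alternatives. That of Pdp1 was lost when resting vehicle replicate 2 or 4 or resting knockout replicate 1, 2 or 5 was left out (adjusted p at most 0.0717). After exercise 1 of 14 was called, a share near the 6.42% of all genes called. It was the lipase Pnpla2 (0.42, adjusted p 0.0325), a call kept in such fits only when exercised vehicle replicate 3 or exercised knockout replicate 2 or 4 was left out (adjusted p at most 0.0910 otherwise). Over all 23 alternatives the call of Pnpla2 was lost in 9. Of 5 growth genes, 0 were called in any contrast. The smallest p values were those of the ubiquitin ligase Trim63 with exercise in vehicle (log2 fold change 0.75, adjusted p 0.0904) and of the growth factor Igf1 between labels after exercise (-1.16, adjusted p 0.0540).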

How the data were processed

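Whole-number counts per gene symbol were used as deposited by the authors, unnormalized, in 53311 rows and 20 columns, each named by 1 sample's description. The submitters' processing notes name Partek, STAR 2.7.8a and DESeq2, and the builds mm10 and GRCm39, with no role or order. The counting program, the strandedness and the annotation are not given in the sources used here. Per the labels' protocols, RNA came from Trizol and a Qiagen kit.

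Groups came from the treatment label. The description of the exercised knockout-labelled samples speaks of training, while title and treatment speak of acute exercise, and they were analysed as such. Genes were kept by filterByExpr (minimum 10 counts) of edgeR 4.0.16 in R 4.3.3, which left 13560 genes with 99.83% of counts. Libraries were scaled by TMM. A robust quasi-likelihood model with 1 mean per group was fitted to all 20 samples. P-values were adjusted by Benjamini-Hochberg across the tested genes (threshold 0.05), and the same edgeR test gives every adjusted p unless another tool is named. Standard errors came from the F statistics. Log2 CPM used a prior count of 2. Single values were compared by exact permutation tests. Scripts were tested on simulated counts. In each group the closest pair of libraries differed by more than sampling noise (chi-square per degree of freedom at least 4.04). Floors of 3 counts cover counting error only. Promoter windows are RefSeq's (GRCm38.p6, matched by symbol for 3 of 3 members), and GENCODE M21 gave exon lengths and overlaps.

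Genes named were the members, up to 4 called genes per list and contrast by smallest p (otherwise the 1 with the smallest p), and the 5 most alike genes per member. Some genes of the resting library comparison were chosen after their values were seen. The members and lists were chosen with earlier results of these data known. Alternatives covered scaling, DESeq2 1.42.0, limma-voom (limma 3.58.1), dispersions, filters (none, or a minimum of 30 counts), samples fitted, a replicate block, each replicate left out, mitochondrial genes left out and marker scores as covariates.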

Additional observations from a re-analysis of the deposited data

Results flagged for a closer look

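Both values below stood far from the other libraries of their group by Dixon's ratio of gap to range. The test was run on 12 sets of 5 libraries (3 genes in 4 groups), and chance flags about 1 in 20 such sets where values are normally distributed, which CPM need not be. Nr4a3 in vehicle at rest replicate 3 was 74.2 CPM, where the next highest library had 18.0 CPM and the ratio was 0.770 against a critical value of 0.71. Without it the exercise response of Nr4a3 in vehicle was called (log2 fold change 4.12, edgeR adjusted p 0.0231). Nr4a3 in knockout at rest replicate 1 was 42.0 CPM, where the next highest had 13.2 CPM and the ratio was 0.747. On the log2 CPM scale the ratios of both sets were 0.357 and 0.468, under the critical value, so both depend on the scale. On that scale 1 other set passed, Nr4a3 in knockout after exercise (0.755, replicate 2). Without knockout at rest replicate 1 the exercise response of Nr4a3 in knockout-labelled muscle had a log2 fold change of 2.55 and was still not called (edgeR adjusted p 0.998).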

How the results depend on the processing

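Of 371 values of the members under alternatives, 360 kept their direction and their side of the threshold. The causes of the others were not tested. Limma-voom gave 3.75 for Nr4a3 with exercise in vehicle, now called, and turned its difference at rest to 0.40. Fitting only the groups of a contrast gave 1.37 for Nr4a1 with exercise in vehicle, no longer called, and called 61 genes there and 567 between labels after exercise. With no filter Nr4a1 after exercise was -0.95 and no longer called. Leaving out 1 library gave ranges of -1.03 to -0.85 for that value, 2.35 to 4.12 for Nr4a3 with exercise in vehicle, and, at rest, -0.31 to 0.16 for Nr4a1 and -1.19 to 1.06 for Nr4a3, whose signs turned to 0.16 and 1.06 without vehicle at rest replicate 3. It gave 52 to 135 called genes with exercise in vehicle (from 52 to 68 without vehicle at rest replicate 1, 2, 4 or 5 or vehicle after exercise replicate 3 or 4) and 0 to 1 in the interaction (without knockout at rest replicate 3). DESeq2 called 189 genes with exercise in vehicle and 2 in the interaction. The slow-fibre score gave 248 and 6 genes with exercise in vehicle and knockout-labelled muscle, and 845 and 1415 between labels at rest and after exercise. The fat-cell score, added after seeing the data, gave 1 interaction gene. Of the 5 most alike genes, 3 stayed for each member by Spearman's rho and 1 by deviations from group means. Replicate numbers did not pair the samples: deviations of same-numbered libraries correlated from -0.45 to 0.44, and between any 2 groups at most 2 of 5 libraries correlated best with their own number. Between the exercised groups all 5 were positive (0.02 to 0.44, mean 0.28, against -0.07 for other pairs), with 0 of 5 best with their own number. With a replicate block, Nr4a3 at rest turned to 0.13, no call of a member changed, and 100 genes were called with exercise in vehicle and 824 between labels after exercise. Depth limits Nr4a2 at rest, at 0 to 12 reads.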

Other observations

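Removing each group's mean left genes that deviated with a member from library to library, given here as a description over 20 libraries that share depth and tissue mix. For Nr4a3 these were Fam134b, a receptor for turnover of the endoplasmic reticulum (r = 0.85), Irs2 (0.84), Nagk (0.82), Map3k14 (0.80) and Atp6v1a (0.80). For Nr4a1 they were Chp1 (0.73), Nr4a3 (0.72), Med21 (0.70), S100a11 (0.68) and Ift80 (0.68). For Nr4a2 they were Pycrl (0.76), Gm26524 (0.75), Impact (0.73), Notch1 (0.73) and Gm43474 (0.72).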
